A study of Rattus norvegicus with 24 samples.

Results

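The cytosolic ribosomal protein genes were taken as every row of the deposited expression table whose gene symbol has the form of a large-subunit (Rpl), small-subunit (Rps) or P-stalk (Rplp) protein, with Rpsa added by name. The rule uses symbols only and leaves out ribosomal S6 kinases and mitochondrial ribosomal proteins. It found 82 of the 17303 rows: 47 large-subunit genes, 32 small-subunit genes and 3 P-stalk genes. Relative levels could be read for 57 of the 82 in dorsolateral striatum and for 72 in nucleus accumbens, with 56 read in both.

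The cytosolic ribosome translates nuclear-encoded mRNA, and most of its proteins are needed in near-equal numbers, so their genes usually move together. Mammalian mRNAs for these proteins characteristically begin with a C followed by a run of pyrimidines, the 5′ terminal oligopyrimidine (TOP) tract, through which mTORC1 and Larp1 control their translation. In neurons, ribosomes lie in the soma, in dendrites and in axons, where local translation serves synaptic plasticity.

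The study measured poly(A) RNA in bulk tissue from male Sprague-Dawley rats, the offspring of dams that received lipopolysaccharide (LPS, a bacterial cell-wall component that triggers innate immunity) or saline, on days 15 and 16 of gestation. The offspring went through unpredictable stress around puberty or were handled only, and were killed on postnatal day 90. The dorsolateral striatum (DLS), linked to habits, and the nucleus accumbens (NAc), linked to motivation and reward, were dissected by needle from coronal slices. The 24 libraries fall into 8 groups of 3: in each region, saline unstressed offspring (the controls), saline stressed offspring (stress alone), LPS unstressed offspring (LPS alone) and LPS stressed offspring (both exposures). All groups are intact males of 1 strain, the exposure was given to the dam and not to the animal sampled, and the labels do not say which rats shared a litter or which DLS and NAc samples were taken from the same brain. The p-values below therefore treat the libraries as independent and set group differences against the spread between them. A litter or brain shared by libraries could make these p-values wrong in size.

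The deposited numbers are digit strings without a decimal separator, so a value is known only up to a power of 10, and depth and absolute levels are unknown. Relative values were recovered for genes whose libraries span at most 3.162-fold once powers of 10 are set aside. They are given as log2 differences from the mean of the 3 control libraries of the same region. A larger true difference can be misread as a smaller one, also of the opposite sign. Of 12091 genes above 1 in every DLS library 9275 were recovered, and of 12496 in NAc 10616. Genes listed as 1 numbered from 3838 to 4463 per library. All 14 listed markers of striatal projection neurons were above 1 in every library of both regions.

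Of the ribosomal protein genes that could not be read in DLS, 6 were listed as 1 in some library and 19 spanned more than the limit. Rpl8, Rplp2, Rps6 and Rps9 were listed as 1 in all 24 libraries. Rps6 encodes the small-subunit protein phosphorylated by S6 kinase and Rplp2 a protein of the P stalk, which recruits translation factors. Rpl7a was listed as 1 in 20 libraries, Rpl39l, a paralog of Rpl39, in 7 and Rps19, mutated in Diamond-Blackfan anaemia, in 4 NAc libraries. A ribosomal protein gene listed as 1 has no usable value here, and a listing as 1 was not read as absence of the mRNA. Just inside the DLS limit lay Rpl35a at 3.136-fold and Rpl18 at 3.125-fold, and just outside it Rpsa at 3.231-fold and Rps25 at 3.234-fold. Since powers of 10 are unknown, a range outside the limit is the smallest that fits the digits and so a lower bound. The largest of these lower bounds in DLS were those of Rpl39 (5.815-fold), Rpl41 (5.767-fold), Rpl30 (5.336-fold) and Rps28 (5.021-fold), so the DLS values below leave out the members with the widest ranges by this measure. In NAc only Rpl41 (3.166-fold), Rpl39 (3.463-fold) and Rpl37a (4.896-fold) lay outside. The Rpl37a locus overlaps that of Rpl37a-ps1, and the table places Rpl10 on chromosome 1 although RefSeq lists a gene of that symbol on another chromosome, so both are uncertain. For Rpl36al and Rpl39l RefSeq had no gene of that symbol, so the place of these rows could not be checked. Ribosomal protein genes also have many processed pseudogenes, and how reads shared with them were counted is not given in the sources used here.

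RefSeq promoters (assembly GRCr8, 250 bases before to 50 bases after a start) were matched by symbol for 65 of the 82 genes, which hold 66 promoters. The 60 bases around the start are shown for Rplp0, Rps26 and Rpl19, which moved with the set, for Rpl17, which parted from it in NAc, and for Rpl18 and Rpl6, which had small p-values in DLS. Capitals mark a C followed by at least 4 more C or T, beginning within 10 bases of the annotated start. The 41st base is the annotated start.
Rplp0: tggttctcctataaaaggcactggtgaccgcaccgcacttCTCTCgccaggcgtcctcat
Rps26: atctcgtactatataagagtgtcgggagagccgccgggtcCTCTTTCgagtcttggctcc
Rpl19: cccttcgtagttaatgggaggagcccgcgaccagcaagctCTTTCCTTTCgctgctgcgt
Rpl17: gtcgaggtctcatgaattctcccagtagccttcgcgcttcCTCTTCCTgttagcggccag
Rpl18: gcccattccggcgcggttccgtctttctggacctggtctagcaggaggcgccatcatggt
Rpl6: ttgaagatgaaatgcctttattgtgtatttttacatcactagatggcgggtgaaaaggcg
These lie at chr12:46718371-46718430 on the minus strand (Rplp0), chr7:1643385-1643444 minus (Rps26), chr10:83519024-83519083 plus (Rpl19), chr18:70856236-70856295 plus (Rpl17), chr1:105325230-105325289 plus (Rpl18) and chr12:41011671-41011730 minus (Rpl6), all in GRCr8. The tract began exactly at the annotated start in 24 of the 66 promoters (36.4%), against 881 of all 33469 (2.63%). Within 10 bases to either side of the start it was present in 48 of 66 (72.7%), against 28.9% of all. CGGAAG, the core letters bound by Ets-family factors, occurred on either strand of the 300 bases in 36 of 66 (54.5%), against 16.6% of all. Rpl18 and Rpl6 hold no tract in that window, which says only that these letters are not there.

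Within a treatment group, the ribosomal protein genes were high together in some libraries and low together in others. Their mean per library, called the ribosomal index here, stood in the DLS controls at -0.18, 0.37 and -0.19. It was 0.87, 0.33 and 0.33 after stress alone, 0.52, 0.73 and -0.20 after LPS alone, and 0.82, 0.64 and -0.15 after both. Control replicate 2 thus lay above 2 of the 3 saline stressed libraries, and the third library of each LPS group lay at the level of the lower controls. Over the same libraries the median of all genes stayed between -0.03 and 0.06.

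In NAc the index was 0.41, -0.17 and -0.23 in controls and -0.18, -0.26 and 0.38 after stress alone. It was -0.10, -0.13 and -0.21 after LPS alone, and -0.17, -0.26 and -0.35 after both. Control replicate 1 and saline stressed replicate 3 stood apart from the other 10 NAc libraries, which lay between -0.35 and -0.10. The NAc medians of all genes ran from -0.01 to 0.02.

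**Figure D1:**
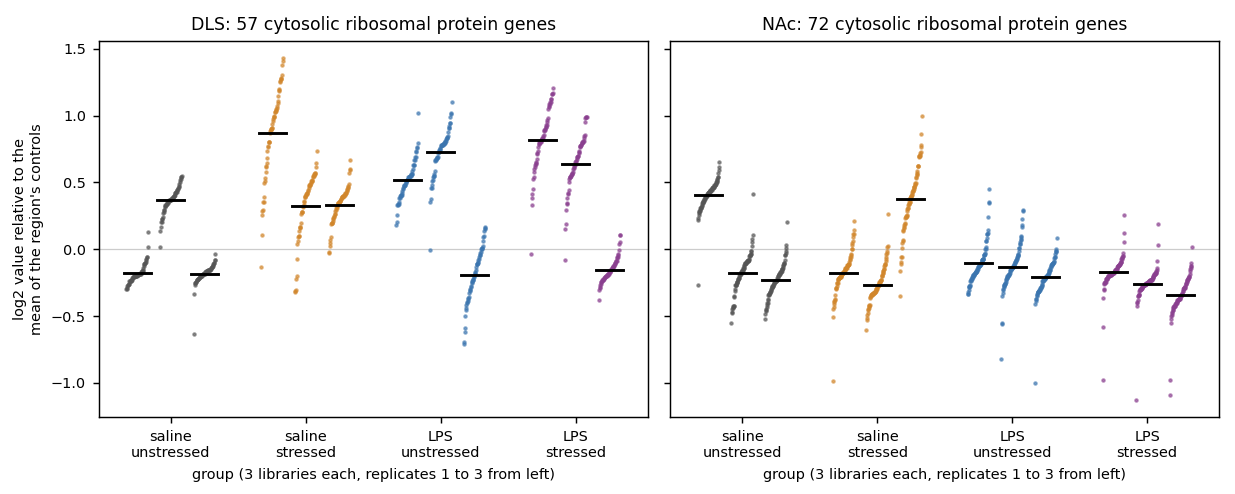
Each point is a ribosomal protein gene in 1 library, as log2 relative to the mean of the region's 3 controls, with 57 genes in DLS and 72 in NAc, sorted within each library; the black bar is their mean. The DLS groups each hold libraries that differ, such as 0.73 against -0.20 after LPS alone, and in NAc control replicate 1 (0.41) and saline stressed replicate 3 (0.38) stand above the rest.

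The number of genes above their own group's mean shows how evenly they moved. In DLS controls 2, 57 and 0 of the 57 genes lay above it in replicates 1 to 3, and after both exposures 57, 55 and 0. After LPS alone the counts were 53, 56 and 0, and after stress alone 57, 0 and 5. In NAc controls 71, 5 and 3 of 72 lay above, and after stress alone 10, 5 and 66. In NAc after LPS alone (47, 46 and 10) and after both exposures (68, 42 and 7) the replicates differed less in level.

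The standard deviation (SD) of the index between replicates, pooled over the 4 groups, was 0.42 log2 in DLS and 0.25 in NAc. By group it was 0.32 in DLS controls, 0.31 after stress alone, 0.48 after LPS alone and 0.52 after both (n = 3 each). In NAc it was 0.35 in controls and 0.35 after stress alone, but 0.06 after LPS alone and 0.09 after both. The median replicate SD of all genes went the same way. In the same order of groups it was 0.16, 0.19, 0.23 and 0.27 in DLS and 0.20, 0.25, 0.11 and 0.11 in NAc. Without NAc control replicate 1 and NAc saline stressed replicate 3 the pooled NAc SD of the index was 0.07. Both libraries stood apart on this same index, so leaving them out was bound to lower its SD. A single gene of the set had a median replicate SD of 0.44 in DLS, against 0.24 for all genes, and of 0.27 in NAc, against 0.21. In DLS 29 of the 57 genes lay above the 90th percentile of all genes' SD (0.44), and in NAc 6 of 72 (percentile at 0.40). Of the genes' sum of squares within groups, 88.5% in DLS and 70.9% in NAc was shared as a mean shift of the library. The limit on range caps these spreads in both regions.

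Genes of the set differed in how much they varied. In DLS the smallest replicate SDs were those of Rplp0 (0.21), the base of the P stalk, Rps2 (0.22) and Rpl6 (0.22). The largest were those of Rps21 (0.61), Rpl36al (0.59), a paralog of Rpl36a, and Rps10 (0.59). In NAc Rpl10 (0.16), Rplp0 (0.19) and Rps4x (0.20), the X-linked form of Rps4, varied least. Rpl10 is a large-subunit protein near the tRNA sites, but the row of that symbol is uncertain, as said above. Rpl22l1 (0.51), the paralog of Rpl22, Rpl30 (0.47) and Rpl38 (0.45) varied most. Rplp0 is among the 3 least variable genes in both regions.

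**Figure D2:**
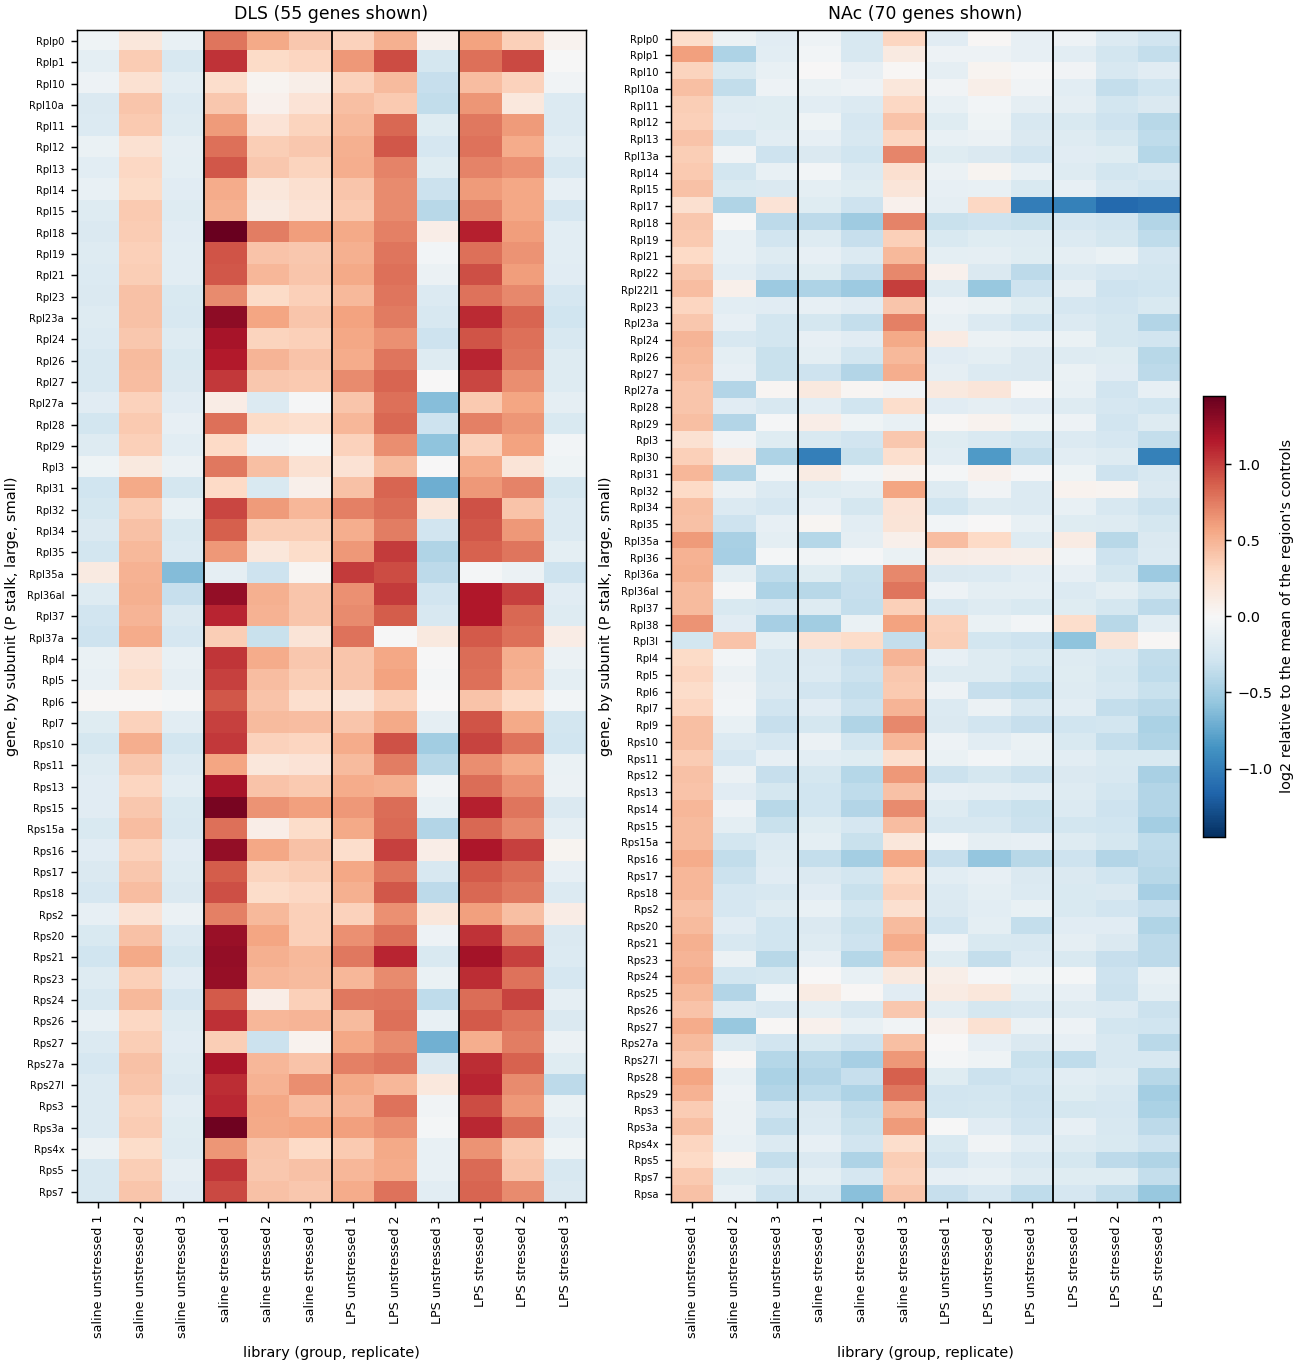
Each row is a ribosomal protein gene (P stalk, large and small subunit from top) and each column a library, coloured by log2 relative to the mean of the region's controls, with 55 genes shown in DLS and 70 in NAc. Most columns are of 1 colour from top to bottom; Rpl17 in 4 NAc libraries and Rpl35a, Rpl27a and Rps27 in DLS saline stressed libraries depart from their column.

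A few genes departed from the rest in the same direction in some libraries. Both these genes and the libraries shown were picked out after the values had been seen. In DLS saline stressed replicate 2, Rps27 lay 0.64 below the index, Rpl35a 0.63, Rpl31 0.55, Rpl27a 0.52 and Rpl29 0.40 below it. In NAc saline stressed replicate 3, a library of another region with its own controls, the same genes lay below the index by 0.43, 0.31, 0.33, 0.43 and 0.49. Of the 10 lowest of 56 genes in the first library, 9 were also among the 10 lowest in the second, Rpl10 and Rpl10a included. In DLS LPS unstressed replicate 3, where Rpl31 lay 0.52, Rps27 0.50, Rpl27a 0.43 and Rpl29 0.39 below the index, 6 of the 10 lowest were shared with DLS saline stressed replicate 2. Rps27 and Rpl31 encode small- and large-subunit proteins, and Rpl29 and Rpl27a proteins of the large subunit. The direction did not hold in every library. In NAc saline stressed replicate 1 the index was -0.18. Rps27 (0.06), Rpl31 (0.11), Rpl27a (0.14) and Rpl29 (0.09) lay above it there, and Rpl35a (-0.41) below it. No test was made of a group chosen in this way.

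In DLS, saline stressed offspring had higher values than controls for 55 of the 57 ribosomal protein genes, beside 53.5% of all genes. The median difference was 0.56 log2 (all genes 0.02), and no gene passed the adjusted threshold. Most of the variation within groups was shared across the set, as given above, so genes counted by direction here and below are not independent. Rplp0 was at -0.06, 0.16 and -0.10 in controls and at 0.77, 0.55 and 0.39 after stress alone. All 3 stressed libraries lay above all controls for Rplp0. The difference was 0.57 ± 0.18 (SE), with an unadjusted p = 0.0069 and an adjusted p = 0.294 over all genes (limma, Benjamini-Hochberg). Rpl18, a large-subunit protein, was at -0.21, 0.37 and -0.16 in controls and at 1.43, 0.74 and 0.60 after stress alone, a difference of 0.92 ± 0.32 (adjusted p = 0.294 in limma). Rpl6, another large-subunit protein, was at 0.02, 0.01 and -0.03 in controls and at 0.90, 0.41 and 0.24 after stress alone, a difference of 0.52 ± 0.18 (adjusted p = 0.294 in limma). For Rpl18 and Rpl6 the groups also did not overlap, and for all 3 genes saline stressed replicate 1 was the highest library. These 3 genes were named for having the smallest p of the set, so their lack of overlap adds no support. The share of all genes whose groups did not overlap is not given here.

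At an unadjusted p under 0.05, 16 of the 57 genes were higher after stress alone and none lower, beside 8.30% of all genes higher and 14.6% in either direction. At the adjusted threshold the count was 0 of 57, beside 0% of all genes. They included Rplp0, the large-subunit genes Rpl3, Rpl4, Rpl5, Rpl6, Rpl18 and Rpl32, and the small-subunit genes Rps2, Rps3, Rps3a, Rps13, Rps15, Rps16, Rps26 and Rps27l. Among them Rpl5, which with Rpl11 carries 5S RNA and restrains Mdm2, differed by 0.60 ± 0.26, and Rps3, at the mRNA entry of the small subunit, by 0.70 ± 0.29. Rpl11 itself differed by 0.38 ± 0.29 (unadjusted p = 0.221), and Rpl23 and Rpl26, which also bind Mdm2 or act on p53, by 0.44 ± 0.31 and 0.69 ± 0.35. Rps27l, a p53-responsive paralog of Rps27, differed by 0.75 ± 0.32, and Rps27a, made as a fusion with ubiquitin, by 0.69 ± 0.36. Only Rpl35a (-0.14 ± 0.35) and Rpl27a (-0.04 ± 0.31) were lower than controls. The median was 0.52 over 32 large-subunit genes and 0.62 over 23 small-subunit genes. Without saline stressed replicate 1 the median was 0.40 and 1 gene was under an unadjusted 0.05, and without LPS stressed replicate 3, which bears only on the error and on which genes can be read, 32 were. Fits without 1 library read 57 to 65 genes of the set, and the share of all genes under 0.05 in them is not given here. With libraries weighted by limma's array weights 31 of 57 passed the adjusted threshold, beside 12.8% of all genes, but the estimation of the weights did not converge.

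LPS alone in DLS gave higher values than controls for 57 of 57 genes, beside 53.6% of all genes. Their median was 0.35 (all genes 0.02), yet the groups overlapped. Rps2, a small-subunit protein at the mRNA entry, was at -0.12, 0.21 and -0.08 in controls and at 0.33, 0.66 and 0.16 after LPS alone, a difference of 0.39 ± 0.18 (adjusted p = 0.967 in limma). Rpl32 differed by 0.57 ± 0.28 and Rplp0 by 0.30 ± 0.18, each also with an adjusted p of 0.967 in limma. None of the 57 was under an unadjusted 0.05, beside 3.25% of all genes, and none passed the adjusted threshold, beside 0%. The median was 0.17 without LPS unstressed replicate 2 and 0.63 without LPS unstressed replicate 3, when 21 genes were under an unadjusted 0.05. The share of all genes in that fit is not given here, so the count of 21 cannot be set against it. With the same array weights, whose estimation did not converge, 52 of 57 passed, beside 26.6% of all genes.

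With both exposures 56 of the 57 genes were higher than in controls, beside 51.6% of all genes. The median was 0.44 (all genes 0.01). Rps16, a small-subunit protein near the tRNA sites, was at -0.16, 0.33 and -0.17 in controls and at 1.17, 0.99 and 0.04 after both, with LPS stressed replicate 3 inside the range of the controls. Its difference was 0.73 ± 0.33 (unadjusted p = 0.046, adjusted p = 0.908 in limma). Rps16 was the 1 gene of 57 under an unadjusted 0.05, beside 3.27% of all genes, and none passed the adjusted threshold, beside 0%. Rps2 (0.38 ± 0.18) and Rpl37a (0.60 ± 0.30) came next. Rpl35a was lower, at -0.03, -0.08 and -0.30 against 0.13, 0.51 and -0.63 in controls. Without LPS stressed replicate 3 the median was 0.75 and 48 genes were under an unadjusted 0.05, and without LPS stressed replicate 1 the median was 0.24. The count of 48 likewise cannot be set against a share of all genes, which is not given for that fit. With these array weights, which did not converge, 53 of 57 passed, beside 27.0% of all genes. These 3 comparisons share the control libraries, among them control replicate 2, which had the higher values.

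Between exposed groups of DLS the ribosomal protein genes differed less. Stress among LPS offspring gave a median of 0.10, with 52 of 57 higher (all genes 45.6%). None was under an unadjusted 0.05, beside 1.32% of all genes. LPS among stressed offspring gave a median of -0.12, with 41 of 57 lower (46.3% of all genes higher). None was under an unadjusted 0.05, beside 2.92% of all genes. The first median turned to -0.19 without LPS unstressed replicate 3 and to -0.10 without LPS stressed replicate 1, and the second to 0.23 without LPS stressed replicate 3 and to 0.07 without saline stressed replicate 1. The interaction of LPS and stress had a median of -0.51, from -0.73 to -0.16 over fits without 1 library. In it 52 of 57 genes lay below 0 (45.8% of all genes above 0). Rplp0 (-0.55 ± 0.25, unadjusted p = 0.047) and Rpl32 (-0.87 ± 0.40, unadjusted p = 0.048) were the 2 genes under an unadjusted 0.05 in limma, beside 5.19% of all genes. That count was 0 in 8 of 12 fits without 1 library and 8 without LPS stressed replicate 1, with the share of all genes in those fits not given here. None of the 57 passed the adjusted threshold in these 3 comparisons, beside 0% of all genes in each. Rpl35a was the gene with the smallest p for stress among LPS offspring: it was at 1.02, 0.94 and -0.38 after LPS alone and at -0.03, -0.08 and -0.30 after both.

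In NAc the set's median lay at or below that of the controls after each exposure. Stress alone gave 27 of 72 genes higher, with a median of -0.02, LPS alone 10 of 72 higher, with a median of -0.16, and both exposures 0 of 72 higher, with a median of -0.25. None of the 72 was under an unadjusted 0.05 for stress alone (all genes 1.29%) or for LPS alone (3.06%). For both exposures 1 was (all genes 2.08%), and none passed the adjusted threshold in any of the 3, beside 0% of all genes. All 3 comparisons use control replicate 1, whose index was 0.41 against -0.17 and -0.23 in the other controls. Without it the medians were 0.19, 0.04 and -0.04, so the first 2 turned sign. For both exposures the count under an unadjusted 0.05 was 10 without control replicate 2, with the share of all genes in that fit not given here. The medians of all genes were 0.01, 0.01 and 0.00.

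Rpl17, a protein of the large-subunit exit tunnel, was the 1 gene under an unadjusted 0.05 after both exposures in NAc. It was at 0.23, -0.43 and 0.20 in controls, at -0.18, -0.30 and 0.06 after stress alone, at -0.13, 0.30 and -1.002 after LPS alone, and at -0.98, -1.13 and -1.09 after both. The 3 libraries of the double exposure and 1 of LPS alone lay apart from the other 8, which ran from -0.43 to 0.30. Rpl17 was named for having the smallest p of the set, so this separation adds no support. The share of all genes with such a separation is not given here. Against controls the difference after both was -1.07 ± 0.28 (unadjusted p = 0.0031, adjusted p = 0.962 in limma), and from -1.28 to -0.95 over fits without 1 library. Among stressed offspring LPS differed by -0.93 ± 0.28 and among LPS offspring stress by -0.79 ± 0.28, and neither passed (adjusted p = 0.998 and 1.00 in limma). In DLS Rpl17 spanned at least 3.257-fold and was not read. The table lists Rpl17 at chromosome 18, 70108977 to 70112083, in a genome build that is not given in the sources used here.

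The other NAc comparisons followed the same libraries. LPS among stressed offspring gave 72 of 72 genes lower (48.0% of all genes higher). The median was -0.23, but -0.03 without saline stressed replicate 3. Rpl17 was the 1 gene under an unadjusted 0.05, beside 2.12% of all genes, and 4 genes were without control replicate 1. Stress among LPS offspring, which uses neither of the libraries that stood apart, gave 65 of 72 lower (47.8% of all genes higher). The median was -0.09 and ran from -0.13 to -0.04 over fits without 1 library. Again Rpl17 was the 1 gene under an unadjusted 0.05, beside 1.25% of all genes, with 0 to 2 genes over fits without 1 library. The interaction had a median of -0.08, from -0.28 to 0.14 over fits without 1 library, with none under an unadjusted 0.05, beside 1.78% of all genes, but with 10 without control replicate 1. For the counts in fits without 1 library the share of all genes is not given here. None of the 72 passed the adjusted threshold in these comparisons, beside 0% of all genes. Of the paralogs, after both exposures Rpl22l1 was at -0.24 ± 0.36, Rpl36al at -0.20 ± 0.29, Rps27l at -0.28 ± 0.27 and Rpl3l, the striated-muscle form of Rpl3, at -0.13 ± 0.27 against controls. Rpl3l ran against the set in single libraries, at -0.27 in control replicate 1 and -0.35 in saline stressed replicate 3, where the index was high. Rpl30, which binds its own transcript in yeast, was at -0.99 in saline stressed replicate 1, -0.82 in LPS unstressed replicate 2 and -0.98 in LPS stressed replicate 3, and between -0.45 and 0.35 in the other 9.

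Whether an exposure acted differently in the regions was tested as a difference of differences over 56 genes. The NAc effect minus the DLS effect had a median of -0.58 for stress alone, -0.53 for LPS alone and -0.69 for both. None of the 56 genes passed the adjusted threshold, and 5, 1 and 6 were under an unadjusted 0.05. Over all genes none passed either, and 5.82%, 4.38% and 3.17% were under an unadjusted 0.05.

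Ribosomal protein genes were lower in NAc than in DLS. Averaged over the 4 treatments, all 18 genes that could be read on 1 scale over the 24 libraries were lower, by a median of -0.71 (all genes -0.08), and all 18 passed the adjusted threshold in limma, beside 66.0% of all genes in either direction and 39.7% lower (69.3% under an unadjusted 0.05 in either direction). When each region was read on its own scale and the 2 scales joined, a procedure added after the data had been seen, 56 of 56 genes were lower, by a median of -0.84, and all passed, beside 70.4% of all genes in either direction and 41.7% lower (72.9% unadjusted). The differences ran from -1.10 for Rps21 and Rps10 to -0.42 for Rps2, -0.45 for Rpl6 and -0.47 for Rpl3. Large-subunit (31 genes) and small-subunit genes (23) had the same median, -0.84. Among all genes the lowest 10% lay below -0.66, and 1.33% lay at or below the value of Rps21.

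**Figure D3:**
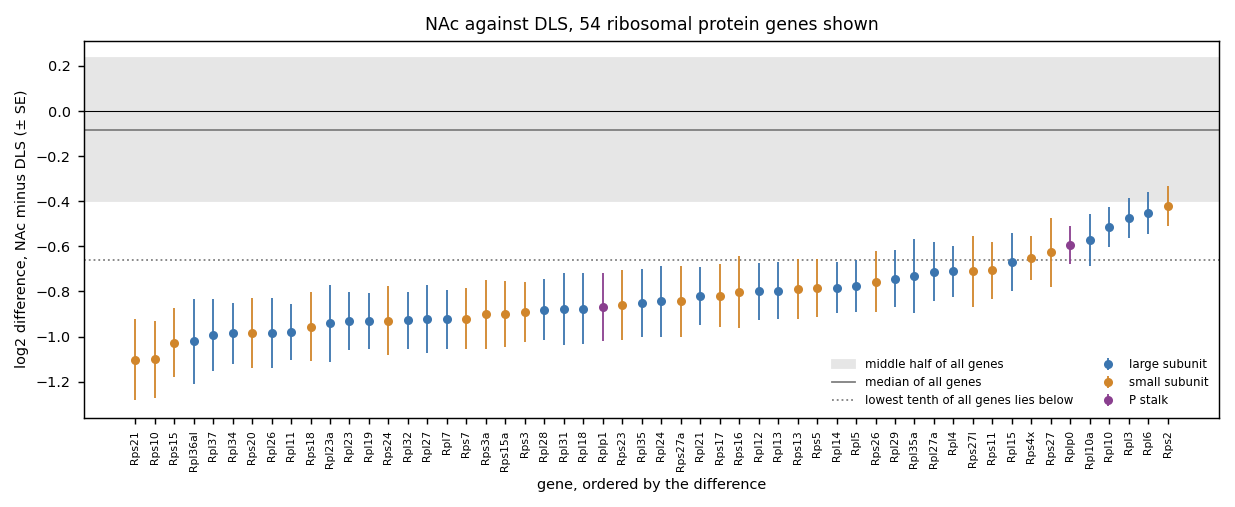
Each point is a ribosomal protein gene read in both regions, as its log2 difference NAc minus DLS averaged over the 4 treatments with its standard error, coloured by subunit; the grey band holds the middle of all genes, from the 25th to the 75th percentile. All 54 genes shown lie below 0, from -1.10 (Rps21) to -0.42 (Rps2), and the median of all genes is at -0.09.

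Rplp0, on the joined scale relative to DLS controls, ran in DLS from -0.10 over a median of 0.34 to 0.77, and in NAc from -0.50 over -0.33 to 0.09. Its difference on 1 scale over the 24 libraries was -0.59 ± 0.08 (adjusted p = 4.13e-06 in limma). Rpl23 ran from -0.24 over 0.39 to 0.79 in DLS and from -0.83 over -0.71 to -0.15 in NAc, a difference on that scale of -0.93 ± 0.13 (adjusted p = 4.23e-06 in limma). Rps21 ran from -0.29 over 0.53 to 1.28 in DLS and from -0.90 over -0.73 to 0.02 in NAc. In all 3 genes the highest NAc library lay above the lowest DLS library, so the regions overlapped. The overlap also held for the index on the joined scale: NAc controls were at 0.01, -0.59 and -0.61, and DLS controls at -0.18, 0.36 and -0.19. The lowest DLS library overall was at -0.20 and the highest NAc libraries at 0.01 and -0.05, while the other 10 NAc libraries lay between -0.72 and -0.51. By treatment the median NAc difference was -0.41 in controls (55 of 56 lower), -0.98 after stress alone, -0.91 after LPS alone and -1.10 after both (56 of 56 lower in each). Over all genes these medians were -0.06, -0.09, -0.09 and -0.09, with 57.5%, 56.6%, 56.6% and 56.8% lower. The control value includes NAc control replicate 1, which stood apart. The change of this difference with exposure is the difference of differences given above, in which none of the 56 genes passed. On 1 scale, leaving out each library in turn kept the median between -0.77 and -0.67. The labels do not say whether dissection, extraction or sequencing was done by region, so region and such batches cannot be told apart.

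Other transcripts that begin with a TOP tract had smaller median differences than the set, though not every single gene did. These 9, such as Npm1, Naca and Btf3, had medians in DLS of 0.40 for stress alone, 0.23 for LPS alone and 0.32 for both, with 8 higher and 1 lower in each. None of the 9 was under an unadjusted 0.05, beside 14.6%, 3.25% and 3.27% of all genes. Between regions 7 of the 9 were lower in NAc, with a median of -0.66, and 7 passed the adjusted threshold on the joined scale, beside 70.4% of all genes.

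Genes that make or use ribosomes also had smaller median differences than the set. Translation initiation factors (34 genes) had a median of 0.17 for stress alone in DLS, with 25 higher, 4 of them under an unadjusted 0.05, and 9 lower, 1 of them under it, a share near the 14.6% of all genes. Elongation factors (10 genes) had a median of 0.05, with 8 higher, and ribosome biogenesis genes (21 genes) of 0.21, with 17 higher. The mTORC1 pathway up to S6 kinase (10 genes) had a median of -0.03, with 5 higher and 5 lower. Between regions initiation factors had a median of -0.19, elongation factors of -0.26 and ribosome biogenesis genes of -0.24, and the mTORC1 pathway was at 0.19, with 6 of 10 higher in NAc. None of these genes passed the adjusted threshold for stress alone in DLS.

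Mitochondrial gene sets were high and low in the same libraries as the ribosomal index. Nuclear genes of oxidative phosphorylation (64 in DLS) had a median of 0.48 for stress alone (59 of 64 higher, with 20 higher and 1 lower under an unadjusted 0.05, beside 8.30% of all genes higher and 14.6% in either direction), 0.37 for LPS alone and 0.31 for both. Their library medians in DLS controls were -0.13, 0.29 and -0.14, and after both exposures 0.50, 0.59 and -0.21. Mitochondrial ribosomal proteins (64 in DLS) had medians of 0.29, 0.25 and 0.20, and library medians of -0.08, 0.23 and -0.14 in controls. In NAc both sets stood highest in the same libraries as the cytosolic set, control replicate 1 (0.36 and 0.25) and saline stressed replicate 3 (0.47 and 0.41). Between regions they were lower in NAc by medians of -0.78 (63 genes) and -0.55 (64 genes).

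**Figure D4:**
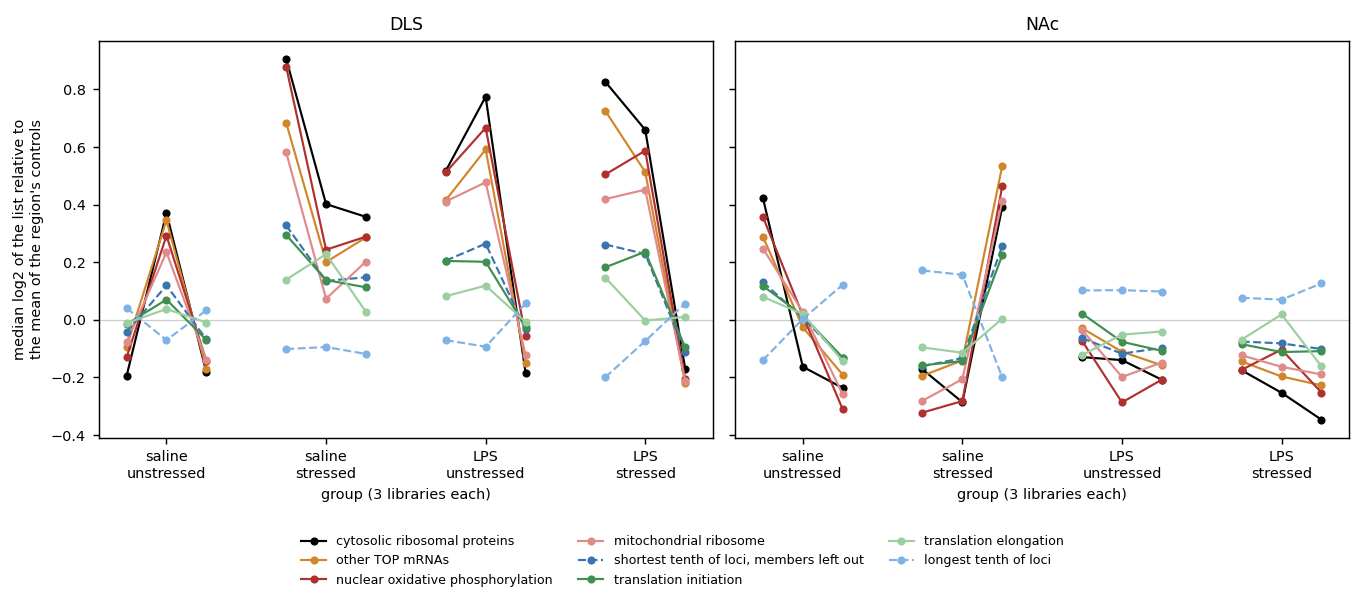
Each point is the median log2 of a gene list in 1 library relative to the mean of the region's controls, with lines joining the 3 libraries of a group. The cytosolic ribosomal proteins (black), the other TOP mRNAs, oxidative phosphorylation genes and mitochondrial ribosomal proteins share high and low libraries in DLS, translation factors move less, and the longest 10% of loci moves little or the other way.

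The level of the set also moved with gene length. The deposited loci of the 82 genes had a median length of 2942 bp, from 755 to 10545 bp, against 17096 bp for all genes. With the ribosomal protein genes left out, the shortest 10% of loci in DLS (885 genes) stood at -0.04, 0.12 and -0.07 in controls, 0.33, 0.14 and 0.15 after stress alone, 0.21, 0.26 and -0.03 after LPS alone and 0.26, 0.23 and -0.11 after both. These are the same high and low libraries as for the index, at a smaller size. The longest 10% (928 genes) moved the other way, at 0.04, -0.07 and 0.03 in controls and -0.20, -0.07 and 0.06 after both. In NAc the shortest 10% was highest in control replicate 1 (0.13) and saline stressed replicate 3 (0.26), and the longest lowest there (-0.14 and -0.20). For stress alone in DLS the shortest 10% had a median of 0.20 and the longest of -0.11, and between regions -0.40 and 0.15. The part of gene length, RNA quality or library preparation in the ribosomal differences was not tested.

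**Figure D5:**
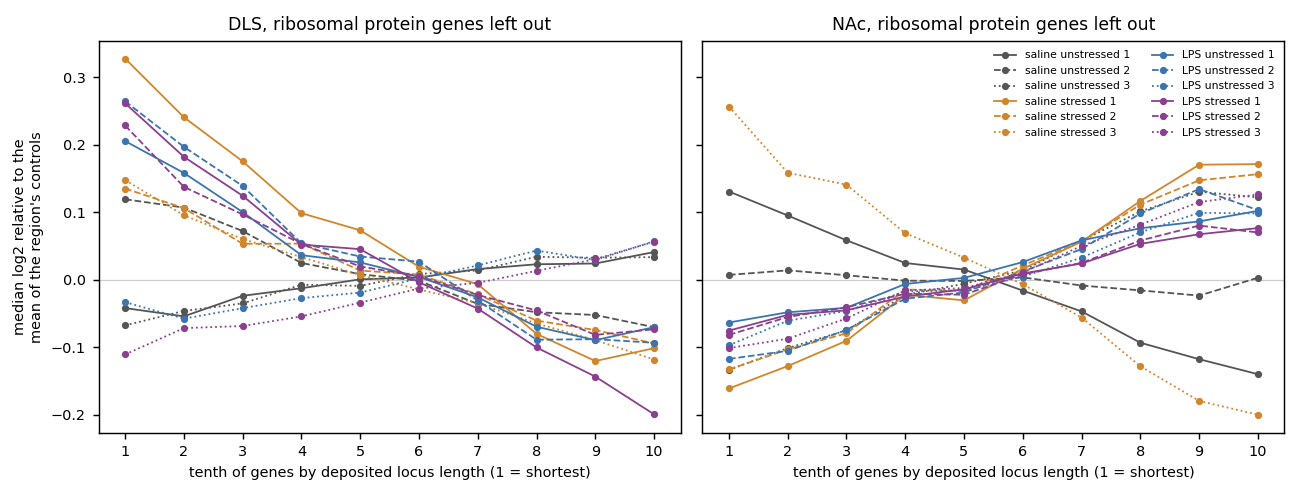
Each line is a library, with the median log2 relative to the region's controls in 10 bins of genes by deposited locus length, ribosomal protein genes left out. Libraries with a high ribosomal index slope down from short to long loci, such as DLS saline stressed replicate 1 (0.33 to -0.10) and NAc saline stressed replicate 3 (0.26 to -0.20), and those with a low index are flat or slope up.

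Markers of other cells were measured in the same libraries, and in bulk tissue fewer cells of a type and less RNA per cell cannot be told apart. Values are given for DLS only, without those of the general neuron markers (5 of 7 read there). In DLS the microglial markers (9 of 11 read) had a median of -0.11, 0.03 and 0.00 in controls, 0.99, 0.77 and 0.17 after stress alone, 0.41, 0.79 and 0.17 after LPS alone and 0.52, 0.47 and 0.41 after both. The astrocyte markers (10 of 10 read) were between -0.17 and 0.08 in controls and at 0.65, 0.65 and 0.14 after stress alone. Oligodendrocyte markers (9 of 10 read) ran from -0.34 to 0.36 over the 12 DLS libraries and striatal projection neuron markers (13 of 14 read) from -0.39 to 0.20. Endothelial and mural markers (6 of 9 read) ran from -0.56 to 0.48, those of leptomeninges and fibroblasts (6 of 8 read) from -0.38 to 0.50, and blood genes (3 of 4 read) from -0.39 to 0.87. None of the 5 markers of ependyma and choroid plexus could be read in DLS. In control replicate 2, where the index was 0.37, microglial and astrocyte markers were at 0.03 and -0.17. Their part in the differences of ribosomal protein genes was not tested.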

How the data were processed

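Bulk poly(A) RNA was measured in 24 libraries of 8 groups of 3 (strand-specific NEBNext libraries and RNeasy columns, per the labels' protocols). Per the submitters' processing notes, STAR 2.6.25.17 and Cuffdiff 2.2.1 were used, with roles, gene models and genome build not given in the sources used here. The authors deposited 1 table headed as FPKM whose values had lost their decimal separator, so the deposited values were treated as a score, mostly of 4 to 6 digits, and not as FPKM; tests planned for FPKM (a pseudocount, a filter on mean level) could not be applied.

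For each gene log10 digits were placed on a circle whose full turn is a factor of 10. Genes above 1 in every library whose libraries lay within an arc of 0.5 decades (3.162-fold) were read as relative log2 values. A gene with a larger true difference is either left out or kept and read as a smaller difference, which may have the opposite sign. limma 3.58.1 in R 4.3.3 fitted the 4 groups of a region (8 residual degrees of freedom), or the 8 groups over both regions, with Benjamini-Hochberg adjustment over all genes read and a threshold of 0.05. The joined region fit placed each region's arc at the nearest turn of the other. The recovery was tested on simulated digits. Promoters were searched with Python 3.11.15 and figures drawn with matplotlib 3.10.9. In each comparison the 3 members with the smallest p were named, with members fixed by role, paralogs, the most and least variable and those listed as 1. The members and lists were chosen with earlier results of these data known. A few genes stay in the fits and counts but are not reported here by name. Replicate numbers follow the order of deposit and pair no samples. Alternatives were other arcs, values of 1 kept as digits, centring on the median, array weights, 1 fit over 24 libraries and leaving out libraries.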

Additional observations from a re-analysis of the deposited data

How the results depend on the processing

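Fits without each library in turn gave no ribosomal protein gene past the adjusted threshold within a region. The list medians ran from -0.19 to 0.40 (DLS, stress among LPS offspring), -0.32 to 0.23 (DLS, LPS among stressed offspring), -0.24 to 0.19 (NAc, stress alone), -0.29 to 0.043 (NAc, LPS alone) and -0.28 to 0.14 (NAc, interaction), all of which changed sign. Those for stress alone, LPS alone and both in DLS stayed above 0 (0.40 to 0.73, 0.17 to 0.63 and 0.24 to 0.75). For stress alone in NAc, Rpsa ran from -0.41 to 0.087. Genes passing between regions numbered 18 to 26, with 18 to 26 read. The share of all genes in those fits is not given here. With an arc of 0.3 decades 7 genes were left in DLS and their pooled index SD was 0.25. An arc of 0.7 decades gave 63 genes passing between regions, with the share of all genes in that fit not given here. On joined scales (added after seeing the data) 56 of 56 passed, beside 70.4% of all genes. Centring each library on its median turned NAc stress alone to 0.0041. With array weights, whose estimation did not converge in DLS, 31, 52 and 53 DLS genes passed for stress alone, LPS alone and both. Of all genes 12.8%, 26.6% and 27% passed in the same fits. The DLS weights ran from 0.233 (LPS stressed replicate 3) to 3.59 (control replicate 3). Leaving out both NAc libraries that stood apart (added) gave 0.042 for LPS alone and a pooled SD of 0.067. They stood apart on the index itself, so its SD was bound to fall. The cause of these changes was not tested, beyond fewer genes or libraries read. No paired analysis was possible because the labels give no replicate numbers. Depth is unknown, so its part in the spreads and differences was not tested. Differences above 3.162-fold cannot be seen as such and may stand among the values as smaller ones of either sign.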
